A study of Mus musculus with 8 samples.

Results

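Mouse kidney kept in 2 ways was compared, with 1 library for each. One piece was flash frozen, and the other was fixed in 10% formalin and set in paraffin (FFPE), as pathology archives store tissue. Of the 27179 genes in the deposited table, 13418 had a log2 value above 0 in at least 1 of the 2 kidney libraries, which is a level of about 1 CPM (reads per 1e+06 reads on the authors' scale), and these genes are described here. The gene nearest to that limit on the outside reached −0.04 in its higher library, and the nearest on the inside 0.03. Per the labels' protocols, Trizol was used to extract total RNA, FFPE samples being freed of paraffin first, and PIXUL sonication for 6 min sheared it. The same was done for brain, heart and liver, which gave 8 libraries from 4 organs. The labels give no strain, genotype, age or sex for any group, and are silent on the number of animals and on whether the frozen and FFPE kidney came from the same one. The question followed was which nephron segments and surrounding tissues the genes that differed between the 2 kidney libraries mark.

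The nephron filters blood in the glomerulus, whose podocytes and mesangial cells hold the filter in place, and then recovers most of the filtrate along the tubule. The proximal tubule takes back glucose, amino acids, phosphate and protein. The thin limbs and the thick ascending limb of Henle's loop build the salt gradient of the medulla, and the distal and connecting tubules and the collecting duct set the final amounts of salt, acid and water. Cortex, medulla and papilla hold these segments in different proportions, so a piece of kidney is a mixture that depends on where it was cut. The organ also carries fat in its sinus and around its capsule, a pelvis lined by urothelium, and an adrenal gland next to its upper pole. Many proximal tubule genes of the mouse differ between the sexes under the control of androgens.

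Both libraries carried the kidney's own markers. Reads in the frozen and the FFPE library numbered 22719 and 15965 for Umod (uromodulin of the thick ascending limb), 28976 and 21129 for Slc34a1 (the proximal phosphate transporter) and 5103 and 7742 for Slc12a3 (the thiazide-sensitive cotransporter). The frozen library held 18729510 assigned reads and the FFPE library 15593121, within the range of 10180972 to 20526813 over the 8 libraries. Nuclear ribosomal RNA took 26.1% of reads in frozen and 1.49% in FFPE kidney, mitochondrial ribosomal RNA 32.4 and 39.4%, and mitochondrial messenger RNA 2.38 and 5.85%. At least 1 read fell on 17129 genes in frozen and 20349 in FFPE kidney. Values are given as reads or as CPM. A difference is the FFPE minus the frozen log2 value, a scale with 0.5 reads added on which 0 reads in both libraries read as −0.37. With 1 library on each side there is no replicate check and no test over samples, so a gene was called higher or lower when it differed by at least 2-fold, and the intervals given are 95% exact counting intervals.

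Most genes lay close to each other in the 2 kidney libraries. Of the 13418 genes, 11938 (89.0%) differed by less than 2-fold, with a median difference of 0.02 and an SD of 0.75 log2 units. At least 2-fold higher in FFPE were 988 genes, 7.36% of those compared, and at least 2-fold lower were 492, or 3.67%. Past 4-fold there were 207 higher and 37 lower. The interval of the ratio lay wholly past 2-fold for 284 higher genes (2.12%) and 176 lower ones (1.31%). Of the 988 higher genes, 508 had passed the level filter through the FFPE library alone, so that for low genes the filter itself favours a call. Pearson's r of the log2 values was 0.936 across the 13418 genes, which are not independent replicates.

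**Figure D1:**
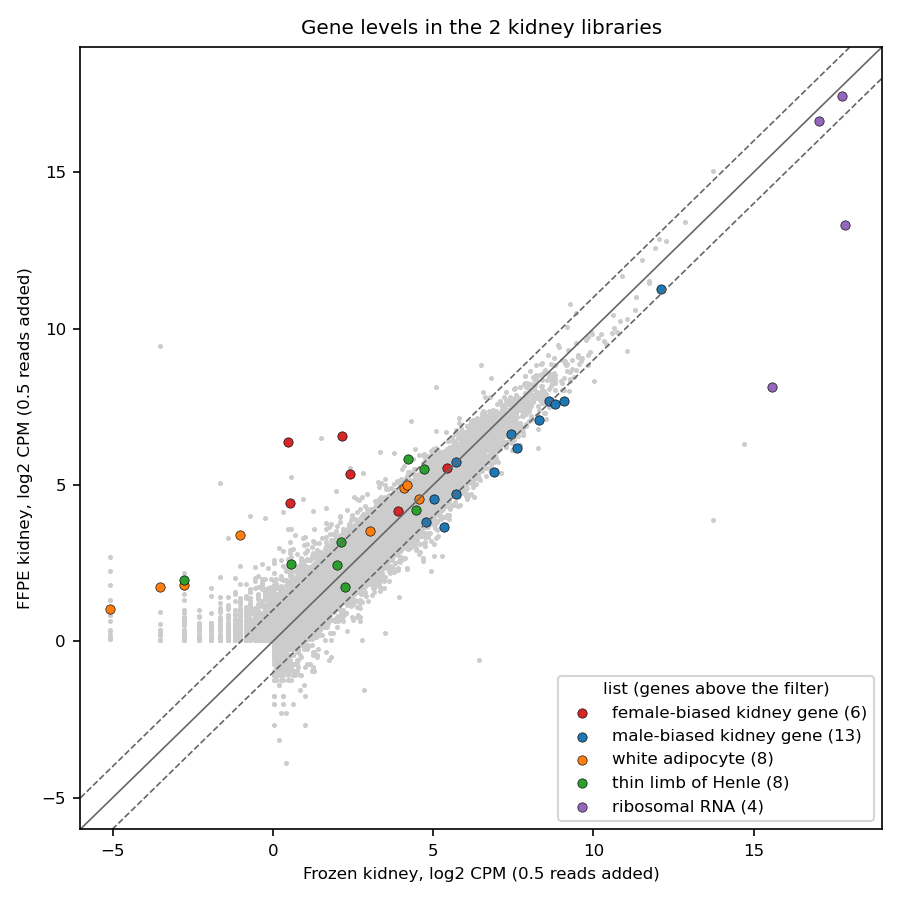
Log2 CPM with 0.5 reads added of the 13418 genes in frozen (x axis) and FFPE (y axis) kidney, 1 point per gene, with the line of equality and broken lines at 2-fold. Coloured points are the members of 5 lists that passed the level filter: 4 of 6 female-biased genes lie above the upper broken line, 7 of 13 male-biased genes lie below the lower one, and 2 of 4 ribosomal RNA genes lie far below it.

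Among genes with a clear symbol and a log2 value of at least 2 in the higher library, the largest rise was that of Xist, the RNA that coats the inactive X chromosome of female cells (chrX:103460373-103483233 in GRCm38). It had 1 read in frozen and 15389 in FFPE kidney, a ratio of 11900 (interval 2140 to 4.71e+05). Ugt1a2, an enzyme that joins glucuronic acid to drugs and bilirubin, had 5 and 733 reads, a ratio of 114 (48.4 to 351). Slc7a12, an amino acid transporter, had 23 and 1827 reads, a ratio of 61.5 (40.9 to 97.3). For both, nearly all reads came from the FFPE library. Prlr, the prolactin receptor, went from 76 to 2113 reads (21.5-fold, 17.1 to 27.4). Aldh1a3, which makes retinoic acid, went from 10 to 357 reads (27.6-fold, 14.9 to 58.1), and the adhesion receptor gene Adgrf1 from 2 to 101 (39.1-fold, 10.5 to 327). Fcgbp, a mucin-like protein of epithelial surfaces, went from 6 to 219 (28.3-fold, 12.8 to 77.9), and Cfd, the complement factor secreted by fat cells, from 8 to 234 (22.6-fold, 11.3 to 53.1). Slc17a2, of the phosphate transporter family, had 0 reads in frozen and 105 in FFPE kidney, at least 27.1-fold higher against a floor of 3 reads per library, and Ucp1, the uncoupling protein of brown fat, had 0 and 144 reads, at least 37.2-fold higher. The remaining pair of the 12 largest rises were small RNAs, Snora75 (described with its sequence further on) and Rnu5g, a U5 spliceosomal RNA, with 48 and 1990 reads (32.1-fold, 24.1 to 43.7).

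The largest falls among the same genes were those of Lars2 and nuclear ribosomal RNA. Lars2, a mitochondrial leucyl-tRNA synthetase, had 459531 reads in frozen and 1740 in FFPE kidney, 341-fold lower in CPM (325 to 358). Rn18s and Rn45s, the 18S rRNA and its 45S precursor, had 839849 and 6140 reads (177-fold, 172 to 181) and 4043882 and 226047 reads (23.1-fold, 23.0 to 23.2). Lars2 moved with them in each of the other organs, with differences of −2.96, −2.45 and −6.54 in brain, heart and liver beside −3.76, −1.99 and −5.91 for Rn18s. Whether the reads counted for Lars2 came from its own message or from ribosomal RNA was not tested, so its fall is not read as one of the message. A pair of genes that the table gives without a symbol, with the gene IDs 100628626 and 100628579, fell in the same range, from 232798 to 327 reads (919-fold lower, 825 to 1030) and from 1485 to 14 reads (137-fold lower, 81.4 to 251). After these came Rnaset2a, a ribonuclease (191 and 26 reads, 9.49-fold lower, 6.28 to 14.9), whose near-identical copy Rnaset2b (241 and 249 reads) makes the split of reads between them uncertain. Ces1g, a carboxylesterase, had 258 and 58 reads (5.74-fold lower, 4.31 to 7.78). Ttr, which carries thyroid hormone, had 558 and 146 reads (4.94-fold lower, 4.11 to 5.96). Azgp1, a zinc-binding glycoprotein, had 439 and 131 reads (4.33-fold lower, 3.55 to 5.30), and Tmem160, a small membrane protein, 112 and 34 (4.25-fold lower, 2.88 to 6.44). Apart from the ribosomal genes, Lars2 and that pair, the largest of these falls were thus much smaller than the largest rises. The other 4 of the 12 were box C/D snoRNAs, taken up with the RNA classes.

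**Figure D2:**
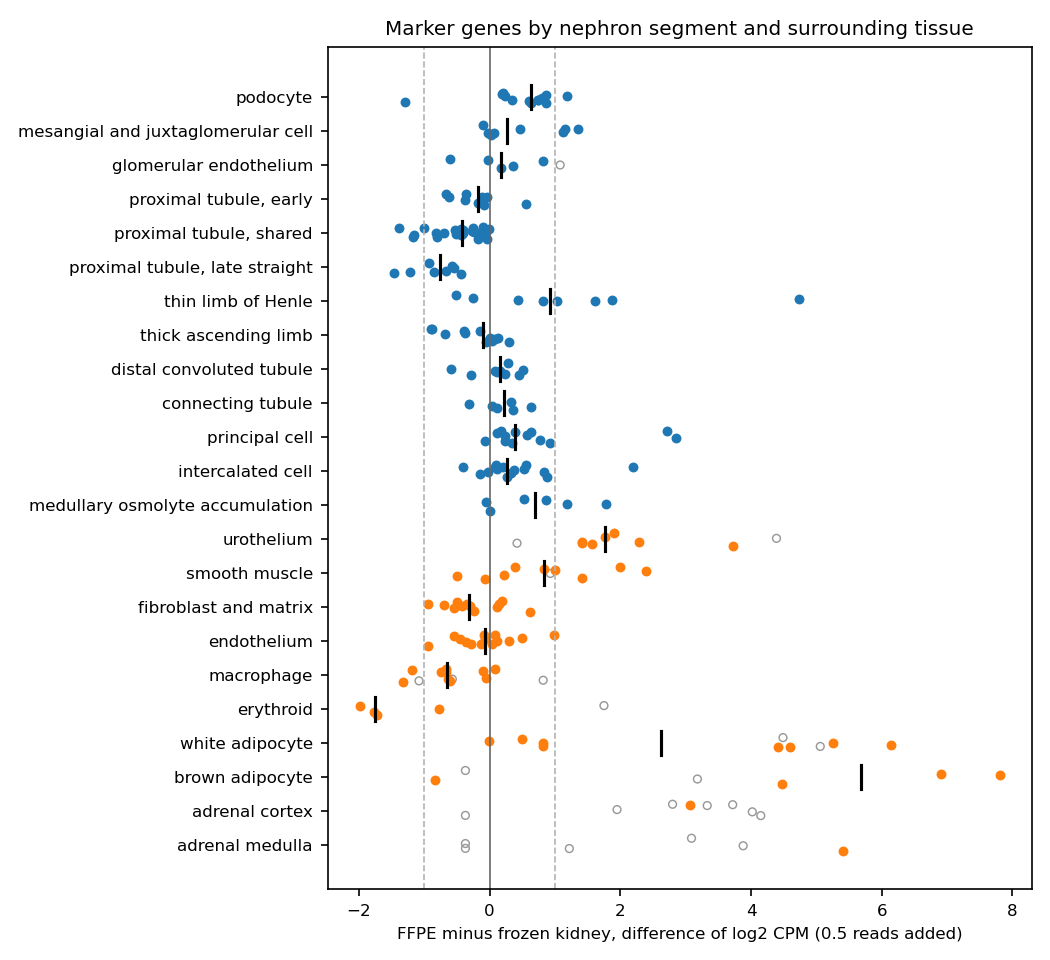
FFPE minus frozen difference in log2 CPM (x axis) of the listed marker genes of 13 nephron groups (blue) and 10 surrounding tissues (orange), 1 point per gene. Filled points passed the level filter and open grey points did not, the black bar is the median of the filled points where there are at least 3, and broken lines mark 2-fold. Proximal tubule points lie mostly left of 0 (Slc5a12 at 0.55 does not), and thin limb, urothelium, fat and adrenal points mostly right of it.

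Podocyte genes of the glomerulus lay a little above the kidney as a whole. Of 13 podocyte genes 12 had a higher CPM in FFPE kidney, with a median difference of 0.64, and 1 was called in each direction. Over all genes 7.36% were called higher and 3.67% lower. Wt1, a transcription factor of podocytes, had 3.80 CPM (65 reads) in frozen and 8.75 CPM (193 reads) in FFPE kidney, 2.30-fold higher (1.73 to 3.09). Tcf21, another podocyte and stromal transcription factor, went the other way, from 10.5 to 4.26 CPM (180 and 94 reads), 2.47-fold lower (1.92 to 3.21). Nphs1, which encodes nephrin of the slit diaphragm, had 209 and 341 reads and a difference of 0.34. Summed over the list, podocyte reads were 5556 and 9914, a ratio of CPM of 1.38 (1.34 to 1.43). The list's median was 0.48 once the trend with transcript length, given below, was taken out.

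Of 8 mesangial and juxtaglomerular genes 3 were called higher, against a background of 7.36%, and 0 lower, with a median of 0.26. Renin (Ren1), which starts the angiotensin cascade, had 141 and 405 reads, 2.22-fold higher in FFPE kidney (1.83 to 2.71). Gata3, a transcription factor of mesangium and collecting duct, had 100 and 332 reads (2.57-fold, 2.05 to 3.25), and Akr1b7, an aldo-keto reductase of renin cells, 10 and 29 reads with a difference of 1.12, having passed the filter in FFPE alone. Pdgfrb, the PDGF receptor of mesangial cells and pericytes, had 595 and 717 reads, a difference of −0.10. Of 5 glomerular endothelial genes above the filter 0 were called, against a background of 11.0% in either direction. The median of the 5 was 0.18, and −0.04 with the length trend taken out. The summed CPM of the list had a ratio of 0.994, with an interval that spans 1.

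Genes shared along the proximal tubule lay lower in the FFPE library. All 24 of them had a lower CPM in FFPE, with a median difference of −0.42 and a range of −1.39 to −0.01. Of them 4 were called lower, against a background of 3.67%, and 0 higher. Amn, which forms the vitamin B12 and albumin receptor together with cubilin, had 730 and 360 reads, 2.62-fold lower (2.30 to 2.98). Ggt1, which splits glutathione at the brush border, had 7084 and 4074 reads (2.25-fold lower, 2.16 to 2.33). Slc22a6, the organic anion transporter OAT, had 5438 and 3152 (2.23-fold lower, 2.13 to 2.33), and Fbp1, an enzyme of glucose synthesis, 5207 and 3344 (2.01-fold lower, 1.93 to 2.10). The endocytic receptor Lrp2 (megalin) differed by only −0.26 (57974 and 62612 reads). Summed over the list, reads were 211810 and 197691, 1.38-fold lower in CPM (1.38 to 1.39). Fewer cells of a type and less RNA per cell cannot be told apart in a bulk sample.

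Genes of the early and the late proximal tubule were listed apart. Early genes, of the convoluted part, had a median of −0.18 with 0 of 9 called in either direction, against a background of 11.0%. Slc5a12, a lactate transporter, had the largest positive difference of them (0.55, 3205 and 6068 reads), and the glucose transporter Slc5a2 (SGLT2) differed by −0.62. Late genes, of the straight part, had a median of −0.75, with all 8 lower in CPM. Of them 2 were called lower, against a background of 3.67%. Cyp7b1, a steroid hydroxylase, had 2026 and 951 reads (2.75-fold lower, 2.55 to 2.97) and Acy3, an aminoacylase, 10266 and 5686 (2.33-fold lower, 2.26 to 2.41). Cyp7b1 and Slc7a13 of this late list also stand in the male-biased list below. The direction of the shared and early lists rests on the scaling. When reads were scaled to the total of all reads, the median of all 13418 genes moved from 0.02 to 0.66, and the medians of the shared and early lists became 0.22 and 0.45, while that of the late list stayed below 0 at −0.12. All 3 lay below the median of all genes. The change of scale moves all genes by nearly the same amount, so it cannot check that order.

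The thin limb of Henle, which runs through the inner medulla, stood higher in FFPE kidney. Of its 8 genes 4 were called higher and 0 lower, against a background of 7.36% higher, and the median was 0.92. Of the 8, 6 had a higher CPM in FFPE kidney and 2 a lower one, with differences from −0.52 to 4.73. Slc14a2, the urea transporter of the inner medulla, rose from 18.5 to 56.7 CPM (316 and 1251 reads, 3.07-fold, 2.71 to 3.48). Epha7, an ephrin receptor, had 25 and 121 reads (3.75-fold, 2.42 to 6.02), and Slc4a11, a borate transporter family member, 75 and 198 reads (2.04-fold, 1.56 to 2.70). Sptssb, a subunit of the enzyme that begins sphingolipid synthesis, had 2 and 85 reads (32.9-fold, 8.83 to 276) and passed the filter in FFPE alone. The thick ascending limb had 0 of 12 genes called, against a background of 11.0% in either direction. Its median was −0.09, which was 0.54 on the scale of all reads. Its transporter Slc12a1 differed by 0.08 (12142 and 16533 reads). Umod, the protein it secretes into urine, was at 1330 CPM in frozen and 723 CPM in FFPE kidney, a 1.84-fold difference (1.80 to 1.88) that stayed short of the 2-fold call.

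Genes of the medulla that counter its high salt pointed the same way as the thin limb. Akr1b3, the aldose reductase that makes sorbitol, had 130 and 580 reads (3.45-fold higher, 2.85 to 4.21), and Nfat5, the transcription factor that responds to high salt, 1689 and 4933 (2.26-fold higher, 2.14 to 2.39). These were the 2 of 6 osmolyte genes that were called, against a background of 7.36% higher. The myo-inositol carrier Slc5a3 differed by 0.52 and the taurine carrier Slc6a6 by 0.00. The median of the list was 0.69, and 0.41 with the length trend taken out.

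Distal segments differed little. The distal convoluted tubule had 0 of 9 genes called and a median of 0.16, and the connecting tubule 0 of 6 and a median of 0.22. Over all genes 11.0% were called in either direction, and lists this short can hold 0 calls at that share. Slc12a3 differed by 0.23 (5103 and 7742 reads), and Calb1, the calcium-binding protein calbindin, by 0.36 (2612 and 4332 reads). In the collecting duct, 12 of 13 principal cell genes had a higher CPM in FFPE kidney, with a median of 0.39. Of the 13, 2 were called higher, against a background of 7.36%. Aqp4, the water channel of the basolateral membrane, rose from 10.1 to 66.1 CPM (172 and 1459 reads, 6.57-fold, 5.60 to 7.74). Aqp2, the water channel that vasopressin inserts into the opposite membrane of the same cells, had 606 and 1337 reads, 1.71-fold apart (1.55 to 1.88) and not called. Elf5, a transcription factor of principal cells, had 8 and 79 reads (7.65-fold, 3.70 to 18.3) and passed the filter in FFPE alone. Of 15 intercalated cell genes, which serve acid and base transport, 1 was called higher, near the 7.36% of all genes. It was Dmrt2, a transcription factor, with 13 and 79 reads (4.71-fold, 2.60 to 9.23), which also passed in FFPE alone. The median of the intercalated cell genes was 0.27.

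Urothelial genes were few in reads and all in the same direction. All 9 listed genes had a higher CPM in FFPE kidney, and together they had 68 reads in frozen and 328 in FFPE, a ratio of 3.74 (2.87 to 4.92). None of them reached 1 CPM in the frozen library, and the 7 that passed the filter did so in FFPE alone. Psca, a surface antigen of urothelium, had 11 and 72 reads (5.07-fold, 2.67 to 10.6). The keratin gene Krt19 had 15 and 68 reads (3.51-fold, 1.99 to 6.61), and the uroplakin gene Upk3a 1 and 25 (19.4-fold, 3.17 to 795). Upk3b, an uroplakin made by mesothelium as well, had 8 and 54 reads, and the 5 mesothelial genes together had 17 and 81, a ratio of 3.69 (2.17 to 6.64).

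Smooth muscle genes split into a group that was higher and a group that was not. Of 9 genes above the filter 3 were called higher, against a background of 7.36%, and 0 lower, with a median of 0.84. Myh11, the smooth muscle myosin heavy chain, had 402 and 1381 reads (2.66-fold, 2.38 to 2.98), and Myocd, the factor that switches on smooth muscle genes, 8 and 57 (5.52-fold, 2.62 to 13.4). Cnn1 (calponin) had 6 and 33 reads (4.26-fold, 1.76 to 12.4). Myocd and Cnn1 both passed the filter in FFPE alone, so Myh11 was the 1 called gene that passed in frozen kidney too. Mylk, the myosin light chain kinase, differed by −0.07 (2787 and 3439 reads) and Des, the intermediate filament desmin, by −0.50.

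The listed fibroblast and endothelial genes gave no calls, beside 11.0% of all genes called in either direction. Lists of this size can hold few calls or none at that share. Fibroblast and matrix genes had a median of −0.32 with 0 of 12 called. The collagen genes Col1a1, Col1a2 and Col3a1 differed by −0.42, −0.69 and −0.34, and the list's median was 0.31 on the scale of all reads. Pan-endothelial genes had a median of −0.08 with 0 of 14 called, and 0.55 on that scale. Among them Vwf, the von Willebrand factor of larger vessels, differed by 0.98 and Plvap, of fenestrated capillaries, by −0.94.

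Some fat cell genes were close to absent from the frozen kidney and present in the FFPE kidney, and others were read in both. Summed over the white fat list, reads were 1151 in frozen and 2597 in FFPE kidney, a ratio of CPM of 1.75 (1.63 to 1.87). Of 10 white fat genes 9 had a higher CPM in FFPE. Of the 8 above the filter 4 were called higher, against a background of 7.36%. Adiponectin (Adipoq) had 1 and 73 reads (56.5-fold, 9.83 to 2260). Cidec, a lipid droplet protein, had 2 and 77 reads (29.8-fold, 7.98 to 251), and Plin1, which coats lipid droplets, 0 and 45 reads, at least 11.6-fold higher. The other white fat genes above the filter stayed within 2-fold: Fabp4 (290 and 662 reads), Lipe (138 and 253), Car3 (310 and 702) and Pnpla2 (402 and 516). Which cells their reads came from was not tested. The 4 that were called passed the filter in FFPE alone. Brown fat genes followed: beside Ucp1, Cidea had 0 and 77 reads, at least 19.9-fold higher, and Dio2, which activates thyroid hormone, 2 and 71 (27.5-fold, 7.33 to 231). Elovl3, also listed for brown fat, had 0 reads in both libraries, and Cox7a1 had 51 and 37. Ucp1 was at 5 reads or fewer in the brain, heart and liver libraries of both kinds.

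Genes listed for the adrenal gland, nerve and skeletal muscle had a few reads in FFPE kidney too. The 8 adrenal cortex genes had 5 reads in frozen and 100 in FFPE, a ratio of 15.5 (6.42 to 48.7). Of these Star, which brings cholesterol to steroid synthesis, gave 5 and 59. The 6 adrenal medulla genes had 0 and 42 reads, at least 10.8-fold more against a floor of 3 reads for the sum in the frozen library. Dbh, which makes noradrenaline, gave 27 of the 42. Pnmt and Chga, which also mark the adrenal medulla, had 0 reads in both libraries. Nerve and Schwann cell genes had 105 and 288 reads (a ratio of 2.12, 1.69 to 2.68), and skeletal muscle genes 10 and 72 (5.58, 2.86 to 12.1), with the fast myosin genes Myh4 (2 and 25) and Myh1 (0 and 24) leading. Of the pancreatic genes, Cela1, an elastase, had 375 and 211 reads and Ins2 (insulin) 1 and 0, and the other 5 had 0 reads in both libraries. Some of these genes were also higher in the FFPE libraries of other organs: Dbh differed by 1.83 in heart and by more than that in brain, Myh1 by 2.82 in brain and 2.31 in heart, and Myh4 by 2.95 and 5.67. In liver each stood at −0.48, which is the value of a gene with 0 reads in both liver libraries and not a measured fall. The adrenal and skeletal muscle lists summed to at most 4.53 CPM in FFPE kidney, so these values rest on low counts. The part of attached fat, adrenal, muscle and nerve tissue in the urothelial, smooth muscle and medullary differences was not tested.

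Red cell genes fell, and most of the listed macrophage genes lay lower. Of 4 erythroid genes above the filter 3 were called lower, against a background of 3.67%, and 0 higher. The haemoglobin genes Hba-a2 and Hbb-bs had 436 and 141 reads (3.99-fold lower, 3.30 to 4.86) and 2397 and 910 reads (3.40-fold lower, 3.15 to 3.68). Globin messages are short. The list's median moved from −1.75 to −1.12 when the length trend was taken out. Of 10 macrophage genes above the filter 2 were called lower, against the same background, and 0 higher, with a median of −0.65. These were the complement genes C1qc (74 and 38 reads, 2.51-fold lower, 1.68 to 3.82) and C1qa (89 and 50 reads, 2.30-fold lower, 1.61 to 3.32), while the receptor Csf1r differed by −0.10 (533 and 643 reads). The macrophage median was −0.34 with the length trend taken out and −0.01 on the scale of all reads, with 0 called lower in both cases. Outside the list, the macrophage receptor genes Cd163 and Folr2 went the other way, with differences of 1.7 and 1.65. The direction given is thus that of the listed genes. Among B and plasma cell genes Jchain, which links antibody chains, rose from 53 to 175 reads (2.56-fold, 1.87 to 3.55), while Ms4a1 and Cd79a, which mark B cells, had 3 and 2 reads in frozen and 0 in FFPE kidney. Neutrophil genes totalled 2 reads in frozen and 5 in FFPE.

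Genes that differ between the sexes divided the 2 kidney libraries. Of 7 genes listed as female-biased in mouse kidney all had a higher CPM in FFPE. Of the 6 above the filter 4 were called higher, against a background of 7.36%. The range was 0.12 to 5.91 and the median 3.42. Beside Slc7a12 (chr3:14480697-14505819) and Prlr (chr15:10177238-10349190), Abcc3, an exporter of conjugated bile acids and drugs, rose from 1.40 to 21.2 CPM (24 and 468 reads, 15.1-fold, 10.0 to 23.8), and Cyp4a14, a fatty acid hydroxylase, from 5.27 to 41.1 CPM (90 and 907 reads, 7.80-fold, 6.28 to 9.80). Slc22a19 and Akr1c18 differed by 0.12 and 0.26. Of 13 genes listed as male-biased 7 were called lower in FFPE and 0 higher, against a background of 3.67% lower, with a median of −1.01. Cyp2d9, a steroid hydroxylase, had 685 and 280 reads (3.16-fold lower, 2.75 to 3.64). Slco1a1, an organic anion transporter, had 3333 and 1611 (2.67-fold lower, 2.52 to 2.84), and Odc1, which makes polyamines, 5418 and 2988 (2.34-fold lower, 2.24 to 2.45). Kap, the androgen-regulated kidney protein, was at 4380 CPM in frozen and 2480 CPM in FFPE kidney, 1.77-fold apart (1.75 to 1.79) and not called. With the trend of length taken out the 2 medians were 3.41 and −0.92. On the scale of all reads they were 4.06 and −0.37, with 4 female-biased genes called higher and 1 male-biased gene called lower.

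The X and Y chromosomes themselves were read differently. Of the Y-linked genes, Ddx3y had 525 reads in frozen and 450 in FFPE kidney, Uty 466 and 460, Eif2s3y 322 and 364, and Kdm5d 239 and 302. None of the 4 was called, with differences of −0.59, −0.39, −0.19 and −0.03. FFPE kidney therefore carried Xist and all 4 Y-linked RNAs, while frozen kidney carried the Y-linked RNAs and 1 Xist read. The libraries of the other organs gave the same picture in part. Frozen heart and liver had 7 and 3 Xist reads with 634 and 639 of Ddx3y. Frozen brain had 13170 Xist reads, 1 read of Uty and 0 of the other 3 Y-linked genes. FFPE brain, heart and liver had 9954, 4652 and 24213 Xist reads together with 224, 233 and 308 of Ddx3y. The labels do not give the sex of the animals behind any library, so preservation and the animals' sex cannot be told apart in the sex-biased genes. The proximal tubule difference lies in the same libraries, and the part of sex in it was not tested.

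**Figure D3:**
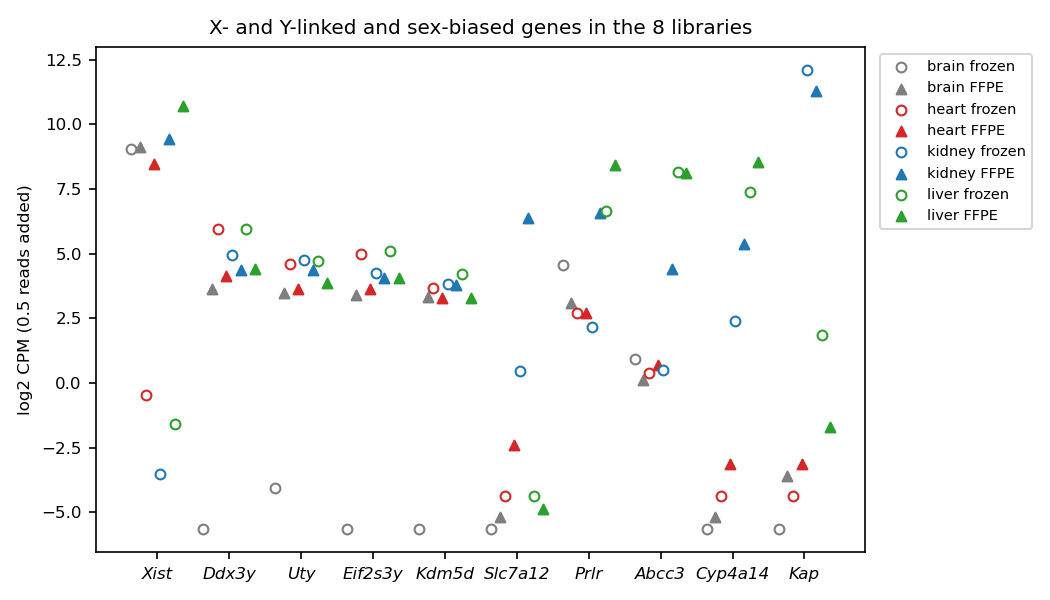
Log2 CPM with 0.5 reads added (y axis) of Xist, 4 Y-linked genes, 4 female-biased kidney genes and Kap in the 8 libraries, with open circles for frozen and filled triangles for FFPE tissue and 1 colour per organ. In kidney (blue) Xist, Slc7a12, Prlr, Abcc3 and Cyp4a14 stand higher in FFPE, and the Y-linked genes lie close together in the 2 libraries.

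Across the kidney genes the difference followed transcript length. The 13162 genes with a known length were cut into 10 equal groups. Those of at most 1390 nt had a median difference of −0.47, with 7.97% called higher and 18.0% called lower. The groups then rose step by step to a median of 0.34 in the longest, of at least 6880 nt, with 9.04% called higher and 0.228% lower. The shortest and longest groups differed in the same direction in liver (−0.40 and 0.23), heart (−0.42 and 0.31) and brain (−0.35 and 0.18). Falls in kidney were thus gathered among short transcripts, and rises were spread over all lengths. With that trend taken out the median was −0.39 for the shared and −0.72 for the late proximal list, 1.16 for the thin limb list and 0.93 for smooth muscle, and it is given for some other lists beside their values.

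**Figure D4:**
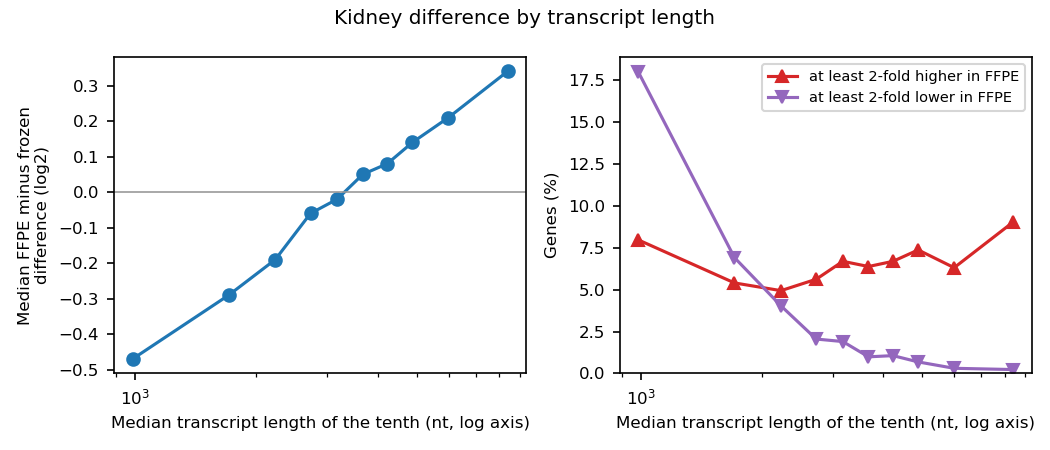
Kidney genes in 10 groups of equal size by transcript length, placed at the median length of the group on a log axis. The left panel gives the median FFPE minus frozen difference in log2 units, which runs from −0.47 to 0.34, and the right panel the percentage of genes at least 2-fold higher or lower in FFPE, of which the lower ones run from 18.0 to 0.228%.

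Short messages of the ribosome and of respiration were lower in FFPE kidney. Of 81 ribosomal protein genes above the filter 12 were called lower, against a background of 3.67%, and 0 higher, with a median of −0.59. Rps2 and Rps14, of the small subunit, had 982 and 454 reads (2.79-fold lower, 2.50 to 3.13) and 923 and 447 reads (2.67-fold lower, 2.38 to 2.99). Of 93 nuclear genes of oxidative phosphorylation, a list drawn by gene symbol that also holds assembly factors, 34 were called lower, against the same background, and 0 higher, with a median of −0.85. Atp5g2, of the ATP synthase ring, had 312 and 113 reads (3.57-fold lower, 2.87 to 4.46), and Cox7c, of cytochrome c oxidase, 577 and 218 (3.42-fold lower, 2.92 to 4.01). The most abundant, Atp5b, differed by −0.66 (16284 and 13312 reads). With the length trend taken out the medians were −0.22 and −0.43. On the scale of all reads they were 0.05 and −0.22, beside 0.66 for all genes. The 22 replication-dependent histone genes above the filter had 8 called lower, against a background of 3.67%, and 0 higher, and a median of −0.80. With the length trend taken out the histone median was −0.39, with 4 called lower and 1 higher, and on the scale of all reads −0.16, with 4 lower and 2 higher. These messages end in a stem-loop in place of a poly(A) tail.

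Mitochondrial messages went against their nuclear partners. All 13 had a higher CPM in FFPE kidney, with a median of 0.69, although they are short. Of them 4 were called higher, against a background of 7.36%. ATP8 and ATP6, which share a transcript and overlap each other, had 118 and 538 reads (3.53-fold, 2.89 to 4.35) and 356 and 1244 reads (2.71-fold, 2.40 to 3.05). COX1, the catalytic subunit of cytochrome c oxidase, had 124946 and 239064 reads and a difference of 0.57. The mitochondrial rRNAs mt-Rnr1 and mt-Rnr2 differed by −0.40 and −0.33. Of the 7 listed nuclear long non-coding RNAs 4 were called higher, against the same background, with a median of 1.28. With the length trend taken out 3 were called and the median was 0.79. Among all 338 long non-coding RNA genes compared 99 (29.3%) were called higher and 12 lower. Malat1, which gathers in nuclear speckles, went from 13700 to 33500 CPM (2.45-fold, 2.44 to 2.46). Meg3, an imprinted RNA, had 17 and 125 reads (5.69-fold, 3.42 to 10.1), and Kcnq1ot1, which silences its imprinted neighbours, 1588 and 5526 (2.69-fold, 2.55 to 2.85). Of 12571 protein-coding genes, in contrast, 5.56% were called higher and 3.37% lower.

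Small nucleolar RNAs differed by their class. They guide chemical changes of ribosomal and spliceosomal RNA, box H/ACA RNAs the change of uridine to pseudouridine and box C/D RNAs the methylation of the ribose. The split into these classes was made after their values were seen. The 3 H/ACA RNAs with the largest rise and 2 of the C/D RNAs with the largest falls are shown so that the boxes that define the classes can be seen. The sequences are those of the GENCODE M21 gene models on GRCm38 (mm10), 5′ to 3′, and capitals mark the ACA box near the 3′ end of H/ACA RNAs, or the first TGATG and last CTGA of C/D RNAs.
Snora75: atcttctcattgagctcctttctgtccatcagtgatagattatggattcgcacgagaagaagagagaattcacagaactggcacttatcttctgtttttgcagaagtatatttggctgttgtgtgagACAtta
Snora30: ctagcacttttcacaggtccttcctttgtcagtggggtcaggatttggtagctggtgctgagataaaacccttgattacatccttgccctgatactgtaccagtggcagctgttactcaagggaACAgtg
Snora33: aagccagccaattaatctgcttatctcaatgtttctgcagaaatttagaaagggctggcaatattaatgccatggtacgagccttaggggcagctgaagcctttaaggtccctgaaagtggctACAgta
Snord49b: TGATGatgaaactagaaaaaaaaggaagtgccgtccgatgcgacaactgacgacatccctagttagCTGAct
Snord68: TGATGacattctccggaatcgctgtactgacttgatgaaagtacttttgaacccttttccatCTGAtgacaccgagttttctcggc

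The 3 H/ACA RNAs are 133, 130 and 129 nt long and the 2 C/D RNAs 72 and 86 nt. Snora75 (chr1:86351169-86351301, minus strand, within Ncl) had 25 and 846 reads, 26.2-fold higher in FFPE kidney (17.6 to 40.7), beside a difference of −0.02 for Ncl itself (2415 and 3075 reads). Snora30 (chr7:127527874-127528003, plus strand, within an intron of Srcap) had 90 and 1016 reads (8.74-fold, 7.04 to 11.0), and Srcap differed by 0.63. Snora33 (chr10:23785347-23785475, minus strand, in Rps12) had 25 and 268 reads (8.30-fold, 5.50 to 13.1), and Rps12 differed by −0.24. Each of these RNAs therefore moved further than the gene that holds it.

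The C/D RNAs shown went the other way. Snord49b (chr11:62603079-62603150, plus strand, in 2410006H16Rik) had 518 and 105 reads (6.37-fold lower, 5.16 to 7.93), and Snord68 (chr8:123103038-123103123, plus strand, in Rpl13) 667 and 145 (5.94-fold lower, 4.96 to 7.16). The host genes differed by −0.61 and −0.77. The RNAs Snora75, Snora33 and Snord68 overlap an exon of the gene around them, so some of their reads may belong to the host. Over the classes, 21 of 34 H/ACA RNAs above the filter were called higher and 1 lower, with a median of 1.48. Of 52 C/D RNAs 9 were called higher and 15 lower, with a median of −0.34, which was 0.30 on the scale of all reads. The backgrounds for both classes are 7.36% of all genes higher and 3.67% lower. Of the other C/D RNAs among the largest falls, Snord35b had 118 and 22 reads (6.93-fold lower, 4.37 to 11.5). Snord22 had 5308 and 1588 reads (4.32-fold lower, 4.08 to 4.57). C/D RNAs went both ways: Snord17 had 964 and 2801 reads and Snord3a, the U3 RNA, 369 and 1579 (3.31-fold higher, 2.96 to 3.72). In the other organs the H/ACA median was 1.66 in brain, 0.19 in heart and 1.03 in liver, and the C/D median 0.60, −0.21 and −0.34.

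**Figure D5:**
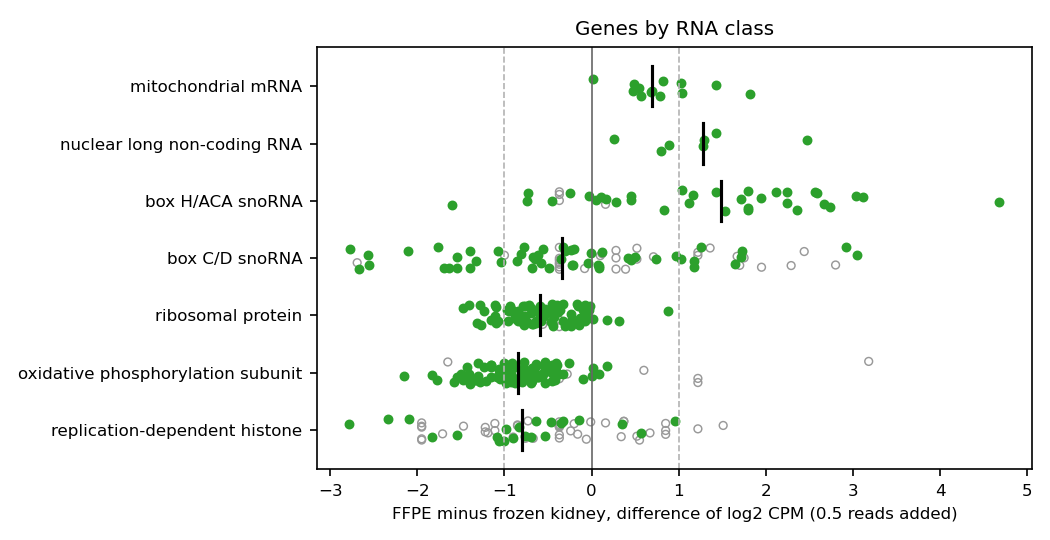
FFPE minus frozen kidney difference in log2 CPM (x axis) of genes by RNA class, 1 point per gene, filled above the level filter and open below it, with the median of the filled points as a black bar and broken lines at 2-fold. Medians of the nuclear long non-coding and box H/ACA RNAs lie at 1.28 and 1.48, those of ribosomal protein and oxidative phosphorylation genes at −0.59 and −0.85.

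Whether the kidney's differences departed from those of the other organs could be tested only over organs. The kidney difference of each gene was set against the mean of the brain, heart and liver differences with limma, with 2 residual degrees of freedom and the kidney assumed to vary like the rest. Of 13418 genes 0 were above and 0 below the other organs at a Benjamini-Hochberg adjusted p under 0.05, and 211 (1.57%) had an unadjusted p under 0.05, 133 above and 78 below. The smallest adjusted p was 0.942, which Abcc3 had, with a kidney difference that exceeded that of the other organs by 4.07 ± 0.55 (SE). For Prlr the excess was 4.32 ± 0.99, for Aqp4 2.06 ± 0.46 and for Slc7a12 5.25 ± 1.82, each with an adjusted p of 1.00 in limma. Slc7a12 had at most 2 reads in any library of the other organs, where a few reads set its differences. The other genes just named were read there: in frozen liver Abcc3 had 2959 reads and Prlr 1044, and in frozen brain Aqp4 had 1080. Without the liver libraries 5 genes were above (Prlr, Abcc3, Vcan, C3 and Slc17a2) and 4 below (Lars2, Ttr and a pair without a symbol), with a limma adjusted p of 0.00629 for Abcc3. Without a level filter 2 were above, Abcc3 (adjusted p 0.0182) and Bche. With 5 CPM added in place of 0.5 reads 11 were above, led by Slc7a12 (3.77, limma adjusted p 0.00123), Ugt1a2 and Aldh1a3, and 0 below. No gene is therefore described here as particular to the kidney.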

How the data were processed

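RNA-seq of 8 libraries was used, 1 per organ and preparation, grouped by the tissue and treatment labels. HISAT2, featureCounts, limma and genome mm10 are named in the submitters' processing notes. Not given in the sources used here: annotation, strand setting and scaling method. For 27179 genes the authors deposited log2 values, which equal log2 counts per 1e+06 reads with 0.5 added to each count, on the total times a scaling factor (0.912 in frozen and 1.42 in FFPE kidney), and gave whole reads for 100.0% of values within 1e-06. A single read stands for 0.0585 CPM in frozen and 0.0453 CPM in FFPE kidney. Intervals and floors cover counting error alone, since reads that carry no molecular identifier can be copies of 1 molecule.

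Genes above log2 value 0 in either kidney library were compared. A call was a difference of at least 1 log2 unit. Intervals of ratios are exact conditional binomial ones at 95%, and genes without reads were set to 3 reads for lower bounds. Gene names were matched for 13181 of 13418 genes (98.2%) to RefSeq on GRCm38, and 107 genes had no symbol. The members and the 52 marker lists were chosen with earlier results of these data known. The named genes were the 12 largest rises and falls with a clear symbol and a log2 value of at least 2 in the higher library, from each list at most 4 members, by size of difference, and the most abundant one, 5 sex-linked genes and the kidney's defining markers. Other genes named were chosen after their values were seen. Some genes that the rule takes are not reported here.

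The test over organs was fitted with a mean-variance trend in limma (version 3.58.1, under R 4.3.3; prior degrees of freedom 5.85). In simulated data for the kidney against the other organs with 13418 genes it called 87% of 100 genes changed by 4 log2 units and 96% of 100 changed by 8, with 14 false calls. The simulated noise was normal, with each gene's spread taken from the real fit after limma had evened it out between genes. These shares are therefore not the power for the measured genes, and the absence of calls cannot be read from them. Other steps ran in Python 3.11.15 with scipy 1.17.1 and statsmodels 0.14.6. Alternatives were other scalings, pseudocounts, filters, a call on the interval, removal of the length trend by lowess, other variance settings and leaving out each organ.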

Additional observations from a re-analysis of the deposited data

How the results depend on the processing

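Of 119 genes called in kidney and followed under each setting, 0 changed sign. They were chosen for a difference of at least 2-fold, and most settings keep the sign or move all genes by less. A change of sign was therefore hardly possible, and the count is no check of the calls. List medians that changed sign on the scale of all reads were, beside those in the report, heat shock (−0.08 to 0.55), unfolded protein (−0.16 to 0.47), T and NK cell (−0.21 to 0.42) and sex chromosome (−0.19 to 0.44), and those of immediate early and cell cycle genes moved from about 0 to 0.63. The 988 higher and 492 lower genes became 3607 and 81 with CPM of all reads, 82 and 122 with 5 CPM added, 402 and 273 with 1 CPM added, 5460 and 1181 without a filter, and 284 and 176 where the whole interval had to pass 2-fold. Higher genes were 388 with a log2 filter of 2, and lower genes 238 with the length trend removed. The share of calls that were higher, 66.8% as reported, was 97.8% on all reads, 78.7% on reads outside ribosomal RNA, 49.6% after quantile normalization, 40.2% with 5 CPM added, 52.6% with the stricter filter, 82.2% without one and 79.5% with the length trend removed. List members in the leading direction numbered 172 as reported, 76 with 5 CPM added and 109 by interval.

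Among lists, lower shared proximal genes (4) were 0 on all reads, 1 after quantile normalization and 2 with the length trend removed. Higher thin limb genes (4) were 1 with 5 CPM added. Higher urothelial genes (7) were 4 after quantile normalization, 0 with 5 CPM added, 3 with 1 CPM added, 0 with the stricter filter and 2 by interval. Higher white fat genes (4) were 7 on all reads, and 1 with 5 CPM added as with the stricter filter. Lower male-biased genes (7) were 1 on all reads. Lower oxidative phosphorylation genes (34) were 3 on all reads, 22 on reads outside ribosomal RNA, 16 with 5 CPM added, 7 with the length trend removed and 18 by interval. Higher box H/ACA RNAs (21), a split added after the data were seen, were 13 with 5 CPM added. The 4 female-biased genes were called under each of these settings. Over single genes and the other lists 818 values stayed near the reported one and 373 moved, by the counting interval of a gene or 1.5 times a count. Beyond what each setting changes by its construction, the cause was not tested.

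The test over organs gave 2 genes above without a filter and 11 with 5 CPM added, and leaving out an organ gave 0 to 5 above and 0 to 4 below. No paired analysis within the kidney was possible because each group holds 1 library and the labels carry no replicate numbers. The test over organs uses the FFPE minus frozen difference within each organ. Depth limits the frozen kidney to 0.176 CPM and the FFPE kidney to 0.136 CPM for a gene without reads.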

Other observations

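Genes that respond to the state of the animal or tissue differed in small groups. Of 10 glucocorticoid and fasting genes 3 were called higher in FFPE kidney and 1 lower, against backgrounds of 7.36 and 3.67%. With the length trend removed 2 were called higher. Sgk1, a kinase induced by corticosteroids, had 583 and 2313 reads in frozen and FFPE (3.07-fold higher, 2.80 to 3.37), Pdk4, which spares glucose in fasting, 191 and 701 (2.84-fold, 2.42 to 3.35), and Zbtb16, a corticosteroid-induced transcription factor, 192 and 537 with a difference of 1.11. Fkbp5, another such target, differed by −0.23 (704 and 774 reads), and Acot1, a fatty acid thioesterase, was 2.43-fold lower (2.03 to 2.91). Of 13 clock genes above the filter 2 were called higher, against the same 7.36%, Per1 (260 and 738 reads, 2.20-fold higher, 1.91 to 2.54) and Per3 (98 and 267 reads, difference 1.07), while Per2 differed by 0.97 and Nr1d1 by −0.48. The clock median was 0.37, and 0.14 with the length trend removed, when 1 was called. Per1 was also higher in FFPE brain, heart and liver, by 0.86, 1.44 and 0.90.

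Of 16 immediate early genes, switched on within minutes of a stimulus, 1 was called higher and 3 lower, against backgrounds of 7.36 and 3.67%. The share called higher is thus near that of all genes. Fos had 31 and 10 reads (4.00-fold lower, 1.91 to 9.15), Junb differed by −1.17, Ccn1 by −1.17 and Nr4a1 by 1.03. None of 10 hypoxia, 9 heat shock, 9 unfolded protein, 7 tubule injury and 8 interferon genes above the filter was called in either direction. Over all genes 11.0% were, and each of these lists is short. The medians of these lists lay between −0.16 (unfolded protein) and 0.41 (interferon). On the scale of all reads 3 hypoxia, 2 heat shock, 1 unfolded protein and 4 interferon genes were called higher. The injury marker Havcr1 (KIM-1) had 19 and 14 reads, and Lcn2 12 and 12. Of 4 cell cycle genes above the filter Cdk1 was called lower, with 17 and 9 reads, against a background of 3.67%.

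In all, 16 genes of the comparison had 0 reads in frozen kidney, fat and adrenal genes among them, and 0 genes had none in FFPE. Named after their values were seen, the others included Slc6a2, the noradrenaline transporter (55 reads, at least 14.2-fold higher), Hdc, which makes histamine (39 reads, at least 10.1-fold), and Acvr1c, an activin receptor (39 reads, at least 10.1-fold).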
